A study of Mus musculus and Homo sapiens with 14 samples.

Results

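The genes of the mitochondrial protein import machinery were read from 4 tables of gene expression in acute myeloid leukemia cells. Members were all rows whose symbol begins with Tomm (translocase of the outer mitochondrial membrane) or Timm (translocase of the inner mitochondrial membrane) followed by a digit, with no regard to capitals. The rule used names and no measured value. It found 26 distinct symbols, and 24 rows in each table, of which 10 were outer membrane (Tomm) and 14 inner membrane (Timm) genes. The inner membrane class is named after the Timm symbol and also holds genes for chaperones of the intermembrane space. There were 19166 rows for the human cells and 20682 in the mouse tables, or 81212 rows over all 4.

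Most mitochondrial proteins are encoded in the nucleus, made in the cytosol and carried into the organelle. The TOM complex is the common gate of the outer membrane, with receptors that bind precursor proteins, a channel, and small subunits that hold the complex together. Behind it, the TIM23 complex takes proteins with a presequence into the matrix or the inner membrane, small TIM chaperones escort hydrophobic proteins across the intermembrane space, and the TIM22 complex inserts carrier proteins into the inner membrane. Dividing leukemia cells depend on mitochondrial protein synthesis and respiration, and both need import.

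Messenger RNA was measured in 14 libraries, 2 for each of 7 groups. Human MOLM-13 cells come from a leukemia with an MLL-AF9 fusion and here carried an empty vector. RN2 cells come from mice whose leukemia arose from MLL-AF9 together with mutant Nras, and their library titles also hold the word empty. MOLM-13 cells were given 250 nM and RN2 cells 350 nM of YKL-05-099, which blocks salt-inducible kinases (SIKs), and their controls 0.1% DMSO, each for 2 hours. RN2c cells, which are RN2 cells with Cas9, were infected by lentivirus with a guide RNA against Sik3 (guide e1 in one library, e3 in the other), against Mef2c (guide 1 or guide 2) or against the Rosa26 locus as a cutting control in both libraries, and were collected on day 2 after infection. Such cells are a mixed population in which not every cell need carry an edit.

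Values are read counts divided by the library's DESeq2 size factor, called normalised read counts below. The 14 libraries held 13961461 to 24275290 reads. Sik3 was at 1939 and 1878 in the sgRosa26 libraries and at 1219 and 1169 in the sgSik3 libraries, and Mef2c was at 8395 and 8369 against 3892 and 4021 in the sgMef2c libraries, so both targets were lower in the libraries labelled for them. Myeloid markers were present throughout, except that CD34 was listed at 0 and KIT at 19.7 to 26.2 in MOLM-13. Among markers of other cells, the summed lymphocyte list stayed between 3.15 and 11.5 in the mouse libraries and between 58.3 and 76.1 in MOLM-13. The summed erythroid list did not exceed 18.3 in any library, and the stromal, endothelial and epithelial list consisted almost wholly of Pecam1 in the mouse cells (3842 to 7321), which myeloid cells also express. In MOLM-13 that list summed to 1055 to 1171, with PECAM1 at 810 to 972, KRT18 at 170 to 220 and COL1A1 at 17.2 to 29.0.

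Nearly the whole machinery was expressed. Of the 24 members, 22 passed the expression filter (a mean of at least 10) in each mouse table and 23 in MOLM-13. The mouse members left out were Tomm20l and Timm8a2, relatives of Tomm20 and Timm8a1 with 0 or 1 read in every library, where a count of 0 allows up to 3 reads. In MOLM-13, TOMM20L lay between 2.32 and 7.34 and was not tested. TIMM23B was listed for human cells alone, and human TIMM8A has the mouse counterparts Timm8a1 and Timm8a2. Tested members were covered by 181 reads (Timm8a1) to 6537 reads (Tomm70a) in the mouse libraries, and by 85 (TIMM23B) to 11619 (TOMM6) in MOLM-13.

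Per kilobase of exon, the outer membrane genes held the top 4 places in the sgRosa26 libraries. The level was 1998 ± 117 normalised reads per kilobase (SD, n = 2) for Tomm6 and 1920 ± 12.6 for Tomm7, which encode small subunits of the complex. It was 1690 ± 29.7 for Tomm40, the channel, and 1455 ± 2.87 for Tomm22, the central receptor. Tomm6 and Tomm7 did not differ beyond their spread. The highest genes of the Timm class were Timm8b at 1242 ± 18.8, Timm13 at 1239 ± 7.93 and Timm50 at 1088 ± 19.7, of which the first 2 did not differ beyond their spread. Timm17a was the lowest tested member at 150 ± 2.47. Its merged exon length of 7889 bases is the longest of the mouse members, and the level per kilobase falls as this length grows. Much of the exon sequence of some members is shared with other annotated genes, so their reads are uncertain: of 50-base stretches, 83.9% in Timm23 (mainly with Gm10273), 75.9% in Tomm6 (Gm21981) and 41% in Timm8a1 (Gm9797) occur in another gene. Tomm40l shares 64.3% of its exon bases with Nr1i3 on the opposite strand, and the counting is not stated to use strand. Nr1i3 was listed at 0 to 4.99 normalised reads in the sgSik3 table.

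With sgSik3, import transcripts were lower on both membranes. By limma, 14 of the 22 tested members fell and 0 rose, where 23.9% of all 10934 genes tested fell, 23.9% rose and 47.8% changed in either direction. Both sgSik3 libraries lay under both controls for 17 members and over them for 3, beside 37.8% and 37.4% of all genes. Outer membrane genes fell in 6 of 9 cases and inner membrane genes in 8 of 13. The changes were moderate: the median log2 fold change was -0.22 for outer and -0.29 for inner genes, beside 0.00 for all genes. No member rose by edgeR or DESeq2 either, and none that was higher had an unadjusted p under 0.05. In a bulk library, fewer cells of a type and less RNA per cell cannot be told apart. The markers of granulocyte maturation moved in the same libraries: 10 of 10 rose, and their summed level went from 21721 to 23741 in the sgRosa26 libraries to 111892 to 122007 in the sgSik3 libraries. Of the 9 myeloid leukemia markers 7 rose and 0 fell, and their sum went from 69432 to 75648 in the controls to 98902 to 100084. The part of these changes in the lower import transcripts was not tested.

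Among the receptors, Tomm20, which binds presequences, was at 3643 and 3757 in the sgRosa26 libraries and at 2877 and 2869 in the sgSik3 libraries. Both sgSik3 libraries lay well under both controls, and the gene had the lowest p of all members (log2 fold change -0.36, SE 0.04, limma adjusted p = 4.4e-05). Tomm70a, the receptor for carrier proteins that arrive with Hsp70 and Hsp90 chaperones, was at 5601 and 5675 against 4786 and 4916 (log2 -0.22, limma adjusted p = 0.000638). Tomm22 was at 2400 and 2406 against 2110 and 2223. Its fall, at a log2 fold change of -0.15 (limma adjusted p = 0.014), was the smallest of those that passed, and its adjusted p was 0.134 without the guide e1 library.

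The channel gene Tomm40 was at 3179 and 3100 in the sgRosa26 libraries and at 2580 and 2593 in the sgSik3 libraries (log2 fold change -0.28, SE 0.04, limma adjusted p = 0.000233). Its paralog Tomm40l was at 1041 and 1027 against 745 and 801, a fall of 0.42 on the log2 scale (limma adjusted p = 0.000317). Both guides gave values under both controls for these genes. The small subunits were not alike in their values. Tomm5 was at 846 and 804 against 626 and 574, and fell the most of all outer membrane genes (log2 -0.46, limma adjusted p = 0.00046). Tomm6 was at 1671 and 1538 against 1658 and 1528, and its groups overlapped. Tomm7 was at 2170 and 2150 against 2055 and 1933 and did not pass (log2 -0.12, limma adjusted p = 0.0517). Its log2 fold change was -0.16 without the guide e1 library and -0.07 without the guide e3 library. Tomm34, a cytosolic co-chaperone that bears the Tomm name without being a core subunit, was at 1485 and 1470 against 1525 and 1523 (limma adjusted p = 0.412).

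In the TIM23 complex, 4 of 6 tested genes fell with sgSik3, with a median log2 fold change of -0.29. Timm17a, a subunit of the channel, was at 1200 and 1173 in the sgRosa26 libraries and at 857 and 921 in the sgSik3 libraries (log2 -0.42, SE 0.05, limma adjusted p = 0.000265). Its paralog Timm17b, which can take the same place, was at 609 and 633 against 662 and 661, both sgSik3 values above both controls (log2 0.09, limma adjusted p = 0.248). The difference between the paralogs was not tested. Timm50, the receptor that takes over presequences from TOM, was at 1670 and 1628 against 1337 and 1321 (limma adjusted p = 0.000359). Timm23, the central channel protein, was at 1060 and 1045 against 867 and 860, and both guides again lay under both controls (limma adjusted p = 0.00143). Timm21, which links TIM23 with TOM and the respiratory chain, was at 585 and 614 against 471 and 504, with an adjusted p of 0.0069 that became 0.0707 without the guide e1 library (limma). Timm44, which tethers the matrix Hsp70 motor to the channel, was at 1510 and 1537 against 1339 and 1452. Its log2 fold change was -0.13 and did not pass (limma adjusted p = 0.0653, DESeq2 adjusted p = 0.26). The log2 fold change was -0.07 without the guide e1 library and -0.19 without the guide e3 library.

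The small TIM chaperones had the lowest median with sgSik3, at a log2 fold change of -0.40, and 4 of 5 tested genes fell. Timm9 was at 674 and 657 in the sgRosa26 libraries and at 436 and 471 in the sgSik3 libraries. It fell by 31.9%, the largest fall of any member (log2 -0.55, SE 0.07, limma adjusted p = 0.000197). Timm10, which forms a hexamer with Timm9, was at 390 and 352 against 326 and 282. Its adjusted p was 0.0393, but 0.103 without sgRosa26 replicate 1 and 0.27 without the guide e3 library (limma). In the other hexamer, Timm13 was at 1615 and 1601 against 1225 and 1210 (log2 -0.40, SE 0.04, limma adjusted p = 8.1e-05). Its partner Timm8a1, whose human counterpart is mutated in deafness-dystonia syndrome, was at 273 and 258 against 201 and 198, with an adjusted p of 0.00703 that became 0.0517 without the guide e3 library (limma). The related Timm8b was at 650 and 636 against 682 and 657 and did not pass (limma adjusted p = 0.458). In the TIM22 complex, 0 of 2 tested genes passed by limma. Timm22, the insertion channel, was at 680 and 711 against 663 and 651, and Timm10b, which docks the small TIM proteins on it, was at 571 and 593 against 633 and 579. Neither had an unadjusted p under 0.05.

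**Figure D1:**
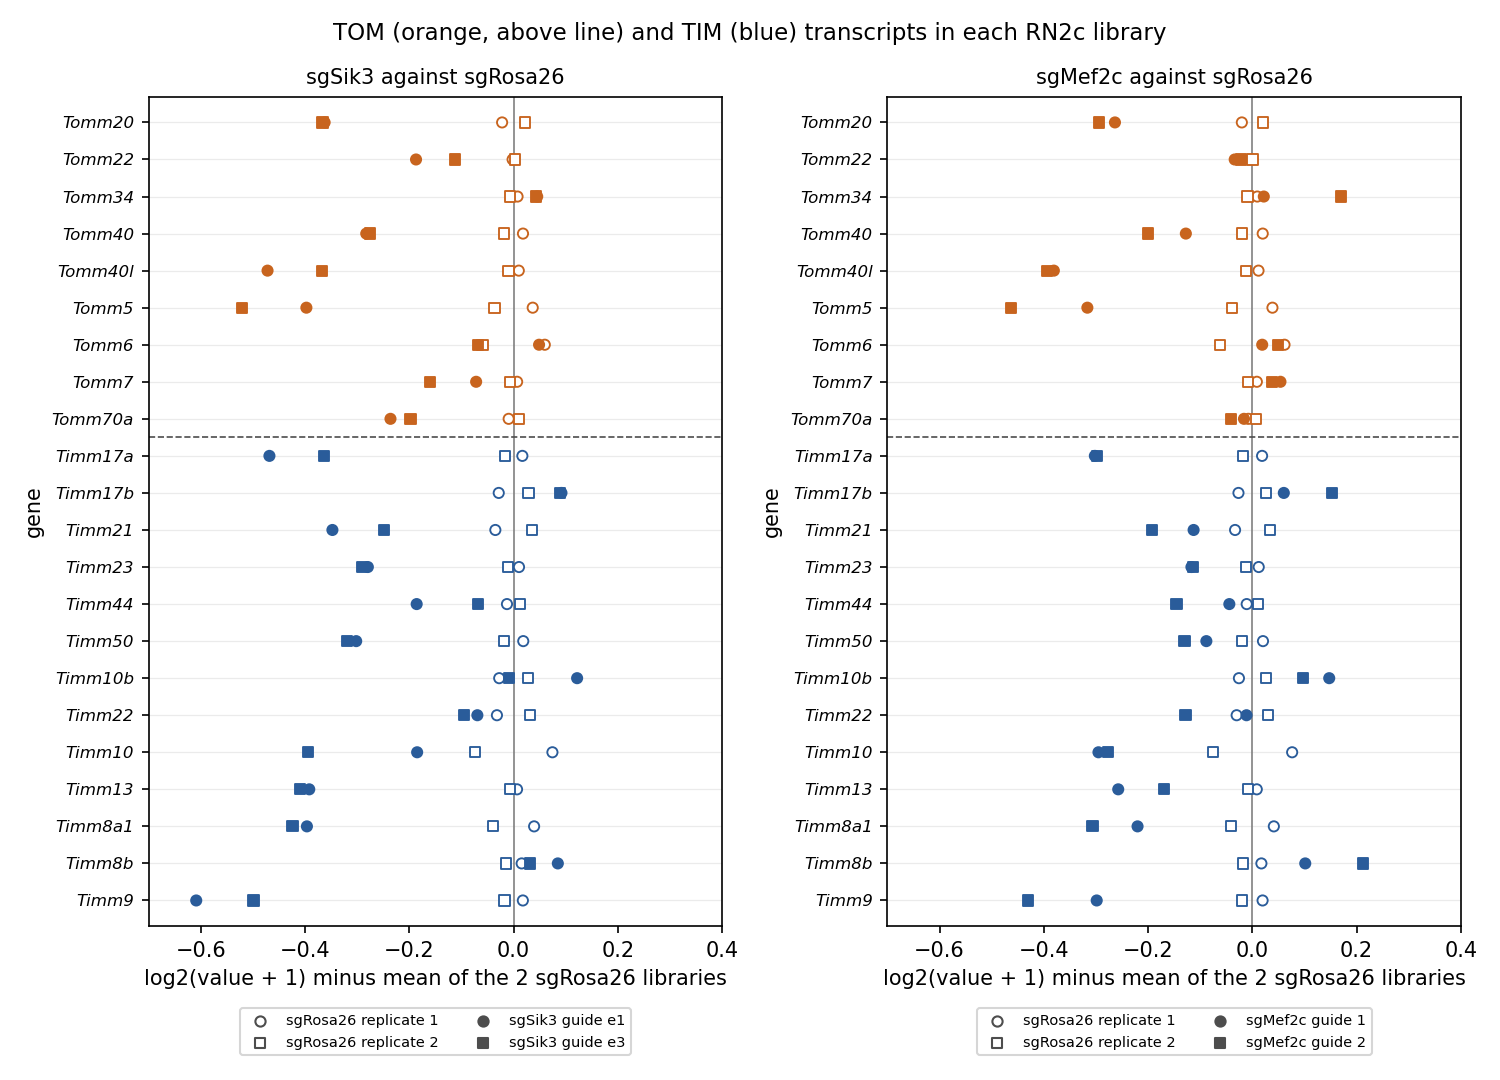
Each row is a tested gene, and the x axis is its log2(value + 1) minus the mean of the 2 sgRosa26 libraries, with open symbols for sgRosa26 libraries, filled symbols for knockout libraries, orange for outer and blue for inner membrane genes. With sgSik3, Timm9 lies at -0.61 (guide e1) and -0.50 (guide e3) and Tomm5 at -0.40 and -0.52, while Tomm34, Timm17b and Timm8b lie to the right of 0 with both guides of either knockout.

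With sgMef2c, fewer import genes passed. By limma, 8 of 22 members fell and 0 rose, where 15.1% of all 10956 genes tested fell, 16.3% rose and 31.4% changed in either direction. Both sgMef2c libraries lay under both controls for 15 members and over them for 5, beside 35.0% and 35.5% of all genes. The outer membrane had 4 of 9 genes lower and the inner membrane 4 of 13. Median log2 fold changes were -0.03 for outer and -0.12 for inner genes, beside 0.00 for all genes. No member rose by edgeR or DESeq2, and 1 of those that were higher, Timm8b, had an unadjusted p under 0.05. The sgRosa26 libraries are the same as in the sgSik3 comparison (0 genes differed in their reads), so the values of both comparisons share their controls, whose normalised values differ between the tables through the separate scaling. The granulocyte maturation markers moved here too: 9 of 10 rose, and their summed level went from 22832 to 24891 in the sgRosa26 libraries to 104667 to 207427 in the sgMef2c libraries. Of the 9 myeloid leukemia markers 5 rose and 1 fell, and their sum went from 72984 to 79312 in the controls to 97635 to 105476. The part of these changes in the import transcripts was not tested.

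Of the outer membrane genes, Tomm40l was at 1095 and 1077 in the sgRosa26 libraries and at 834 and 826 in the sgMef2c libraries (log2 fold change -0.39, SE 0.05, limma adjusted p = 0.00231). Tomm20 was at 3830 and 3939 against 3235 and 3167 (log2 -0.28, SE 0.04, limma adjusted p = 0.00277). Tomm5 was at 889 and 843 against 695 and 628 (log2 -0.39, limma adjusted p = 0.00745). In these genes both sgMef2c libraries lay under both controls by more than the controls differed from each other. Tomm40 was at 3341 and 3251 against 3016 and 2868, with an adjusted p of 0.0284 that rose to 0.133 when sgRosa26 replicate 1 was left out, to 0.0733 without replicate 2 and to 0.13 without guide 2 (limma). The other receptors did not pass: Tomm70a was at 5887 and 5950 against 5853 and 5752, and Tomm22 at 2522 and 2523 against 2464 and 2486. Tomm6, Tomm7 and Tomm34 had log2 fold changes of 0.03, 0.05 and 0.10 and did not pass.

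Of the inner membrane genes, Timm17a was at 1262 and 1230 in the sgRosa26 libraries and at 1010 and 1012 in the sgMef2c libraries, the 1 TIM23 gene of 6 that passed (log2 -0.30, SE 0.05, limma adjusted p = 0.005). Timm17b was at 640 and 664 against 680 and 725 (limma adjusted p = 0.258). Both of its sgMef2c values were higher than its controls, and both Timm17a values were lower. Timm9 was at 708 and 689 against 568 and 518 (log2 -0.36, SE 0.07), with an adjusted p of 0.00963 that became 0.0517 without guide 2 (limma). Timm13 was at 1698 and 1678 against 1412 and 1500, with an adjusted p of 0.0179 that rose to 0.0775 when sgRosa26 replicate 1 was left out, to 0.0637 without replicate 2 and to 0.066 without guide 1 (limma). Timm10, at 410 and 369 against 317 and 321, passed with an adjusted p of 0.0457 by limma. Leaving out any 1 of the 4 libraries ended its call, with adjusted p from 0.0545 to 0.206, so this gene is the least secure of those that passed. Timm50, Timm23, Timm21, Timm44 and Timm8a1 lay under their controls in both libraries, with log2 fold changes from -0.09 to -0.26, and did not pass (limma adjusted p from 0.0747 to 0.207). Timm8b was at 683 and 667 against 724 and 782, and Timm10b at 600 and 622 against 677 and 654, both with higher values in both sgMef2c libraries and neither past the test. Timm22 was at 715 and 745 against 724 and 668, and its groups overlapped.

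The knockouts were also compared directly, with edgeR on the reads of the 6 RN2c libraries. In this fit 3 of 22 members were higher in sgMef2c than in sgSik3 cells and 0 were lower, where 3.7% of all 10950 genes were higher, 5.74% lower and 9.44% different in either direction. No member with a lower value in sgMef2c cells had an unadjusted p under 0.05, and DESeq2 found 0 lower too. Tomm70a was higher by 0.18 on the log2 scale (edgeR adjusted p = 0.017), Timm50 by 0.19 (edgeR adjusted p = 0.0261) and Timm13 by 0.18 (edgeR adjusted p = 0.0415). For these genes the values against sgRosa26 were, in sgSik3 and sgMef2c in turn, -0.22 and -0.03 for Tomm70a, -0.31 and -0.11 for Timm50, and -0.40 and -0.21 for Timm13. The direct difference was positive in 21 of 22 members and in 5615 of all genes, with a median of 0.08 for outer genes, 0.11 for inner genes and 0.00 for all genes. The count was 0 without either sgSik3 library, 1 without the guide 1 and 2 without the guide 2 library of sgMef2c, and 3 without either sgRosa26 library. Without guide e1, guide e3 and guide 1 in turn, the adjusted p was 0.168, 0.128 and 0.0565 for Tomm70a and 0.161, 0.194 and 0.106 for Timm50 (edgeR). For Timm13 it was 0.2 without e1, 0.246 without e3 and 0.126 without guide 2 (edgeR).

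**Figure D2:**
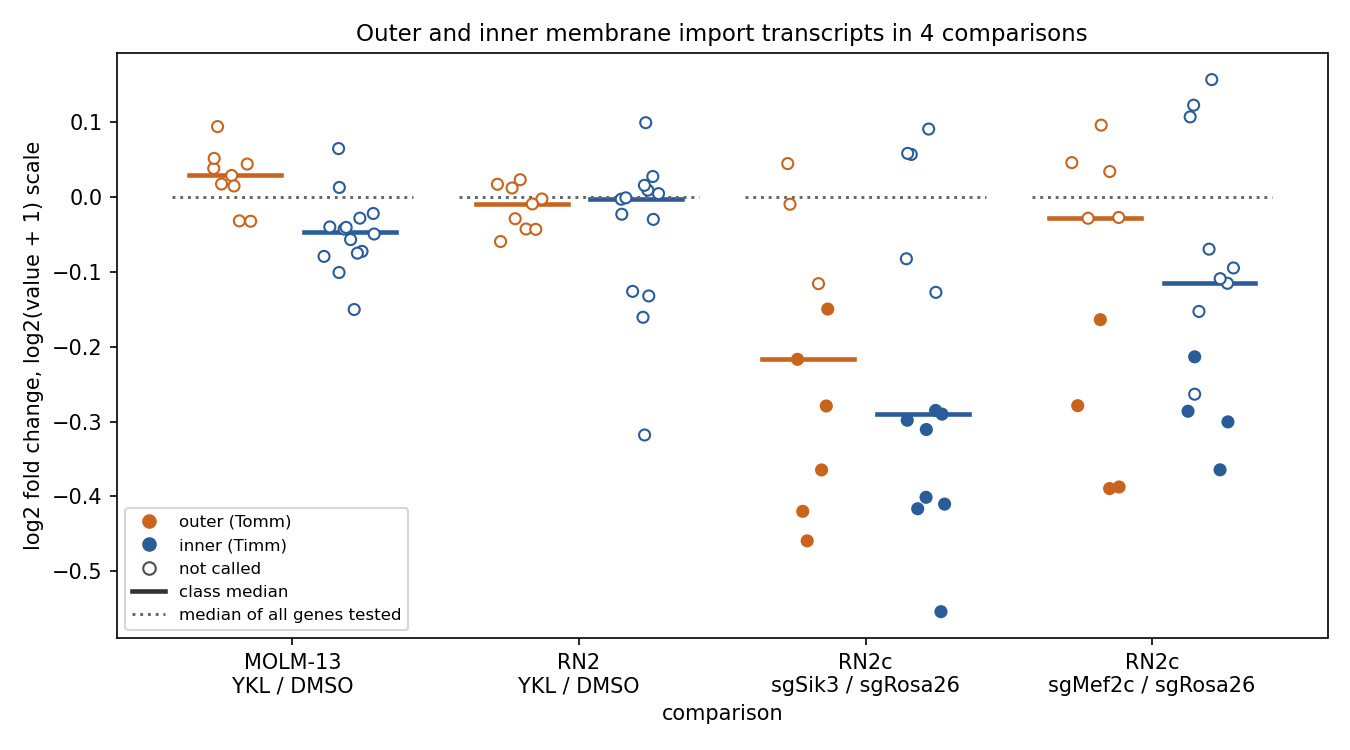
Each point is a tested gene and the y axis is its log2 fold change in 1 of 4 comparisons, with filled points for genes past the limma threshold, thick lines for class medians and dotted lines for the median of all genes tested. Outer medians are 0.03, -0.01, -0.22 and -0.03 from left to right and inner medians -0.05, 0.00, -0.29 and -0.12.

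Set side by side, the outer and inner classes ranged widely within themselves in the knockouts. With sgSik3, outer genes ran from -0.46 (Tomm5) to 0.04 (Tomm34) in log2 fold change and inner genes from -0.55 (Timm9) to 0.09 (Timm17b). With sgMef2c, the ranges were -0.39 (Tomm5) to 0.10 (Tomm34) and -0.36 (Timm9) to 0.16 (Timm8b). The inner median was lower than the outer median in both knockouts and in MOLM-13, and the ranges of the classes overlapped in all 4 comparisons. No test of one class against the other was made. The share of genes that fell was 66.7% of outer and 61.5% of inner genes with sgSik3, and 44.4% and 30.8% with sgMef2c. In sums of normalised reads, the outer class went from 22035 and 21927 in the sgRosa26 libraries to 18963 and 18960 with sgSik3, and the inner class from 11487 and 11439 to 9699 and 9765. With sgMef2c, the outer sum went from 23163 and 22989 to 21731 and 21540 and the inner sum from 12074 and 11993 to 11131 and 11002. Each sum was lower in both knockout libraries than in both controls.

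After 2 hours of YKL-05-099, no import gene passed the test in RN2 cells. By limma 0 of 22 members were called, where 0.317% of all 10732 genes were (0.28% lower and 0.0373% higher), and edgeR and DESeq2 also called 0. At an unadjusted p under 0.05 there were 2 members by limma, 2 by edgeR and 0 by DESeq2. They were Timm10 and Timm17a. Timm10 was at 301 and 300 in the DMSO libraries and at 229 and 253 in the YKL-05-099 libraries (log2 fold change -0.32, SE 0.10, limma adjusted p = 0.429). Timm17a was at 935 and 979 against 880 and 832 (log2 -0.16, SE 0.06, limma adjusted p = 0.626). Timm21 came next, at 490 and 433 against 435 and 405, and its groups overlapped. The treated and control libraries lay apart for 5 members: Timm10, Timm17a, Tomm70a and Tomm7 were lower and Timm8b was higher in both treated libraries. Of all genes, 18.7% lay apart in the lower and 18.1% in the higher direction. Medians were -0.01 for outer, 0.00 for inner and 0.00 for all genes.

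In MOLM-13 cells, too, no import gene passed after 2 hours of the inhibitor. By limma 0 of 23 members were called, as were 0.0% of all 11361 genes, and edgeR and DESeq2 called 0 members. None had an unadjusted p under 0.05 with any of these tools, beside 1.27% of all genes by limma. TIMM50 had the lowest p, at 3630 and 3725 in the DMSO libraries and 3322 and 3538 in the YKL-05-099 libraries (log2 fold change -0.10, SE 0.09, limma adjusted p = 1.00). It was also the 1 member whose groups lay apart, beside 10.5% of all genes that lay apart in the lower and 10.7% in the higher direction. TIMM17B was at 660 and 853 against 609 and 750, and TOMM7 at 2150 and 2495 against 2332 and 2619. In both genes the library numbered 2 was the higher in each group, and the groups overlapped.

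The libraries numbered 1 and 2 differed by more than the treated and control groups for many MOLM-13 members. Averaged over both groups, 17 of 23 members were higher in the libraries numbered 2, with a median difference of 0.07 on the log2 scale. The share of all genes that were higher there was not counted. Deviations of equal numbers correlated at 0.72 over 10054 genes of these cells, so the difference is not particular to import genes. TOMM6 was at 7707 and 9939 with DMSO and at 8148 and 9591 with YKL-05-099, a difference of 0.30 between the numbers and of 0.01 between the groups. TOMM20 went the other way, at 6851 and 5989 with DMSO and 7414 and 5833 with YKL-05-099. TIMM13, at 4100 and 5038 against 3944 and 4839, was again higher in the libraries numbered 2. The class medians were 0.03 for outer and -0.05 for inner genes, and each changed sign when 1 of the DMSO libraries was left out. The inner median ran from -0.12 without YKL-05-099 replicate 2 to 0.02 without DMSO replicate 2, and the outer median from -0.03 without DMSO replicate 1 to 0.02 without DMSO replicate 2.

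**Figure D3:**
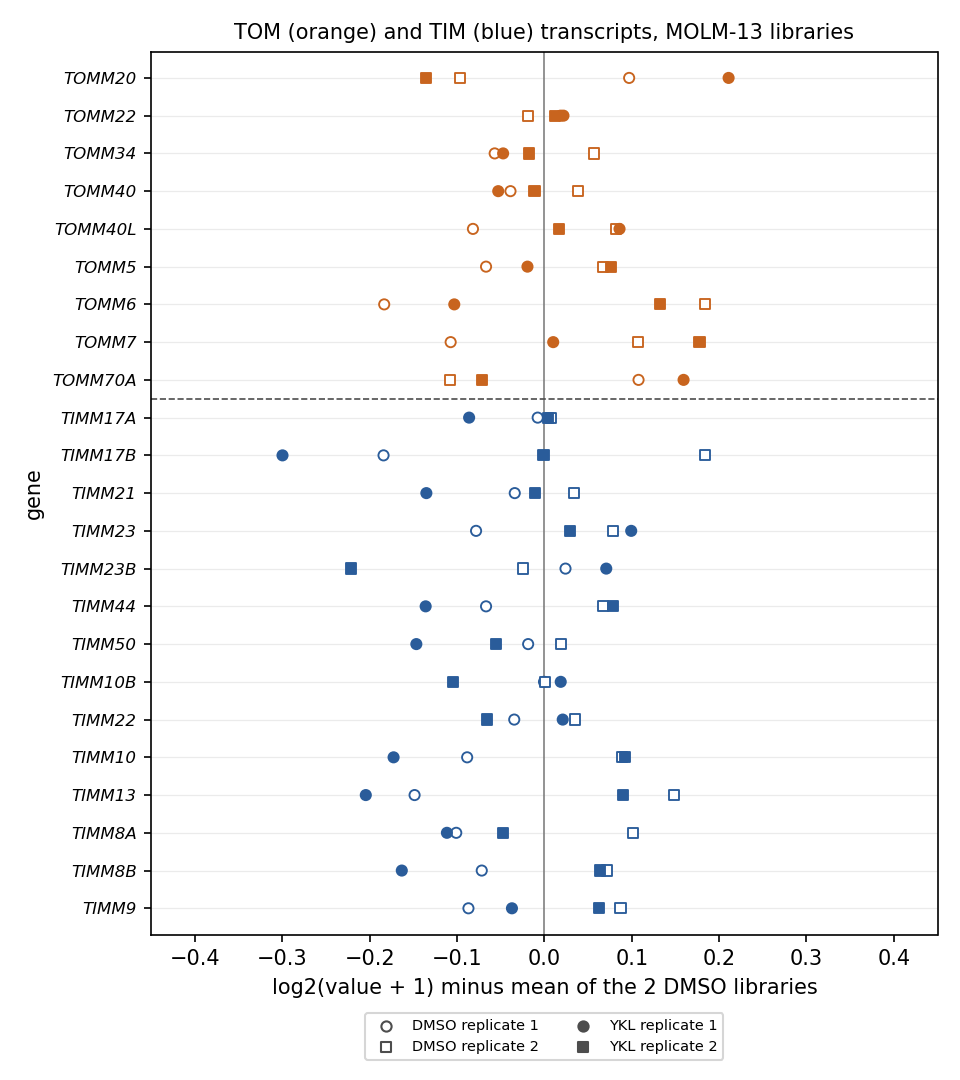
Each row is a tested MOLM-13 gene and the x axis is its log2(value + 1) minus the mean of the 2 DMSO libraries, with open symbols for DMSO, filled symbols for YKL-05-099, circles for replicate 1 and squares for replicate 2. For TOMM6, TIMM13 and TIMM17B the squares lie to the right of the circles, and for TOMM20 and TOMM70A to the left.

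Other genes of the import pathway were read from a list of 26, which holds chaperones that deliver precursors, the import motor, the intermembrane space oxidation system, the outer membrane sorting machinery and the processing peptidases. With sgSik3, 15 of 25 tested partners fell and 0 rose by limma, where 23.9% of all genes fell, and their median log2 fold change was -0.20. With sgMef2c, 7 of 25 fell and 0 rose, where 15.1% of all genes fell, and the median was -0.12. The sgMef2c count was 4 without sgRosa26 replicate 1, without sgRosa26 replicate 2 or without guide 2, and 1 without the mean-variance trend. In neither comparison did a partner that was higher have an unadjusted p under 0.05.

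Hspa9, the matrix Hsp70 that drives the import motor, was at 12027 and 11378 in the sgRosa26 libraries and at 7907 and 8179 in the sgSik3 libraries (log2 -0.54, SE 0.04, limma adjusted p = 7e-06). Hsp90ab1, a cytosolic chaperone that hands precursors to Tomm70a, was at 63559 and 61806 against 44888 and 46026 (log2 -0.46, limma adjusted p = 1e-05). Hsp90aa1, its paralog, and Chchd4, the receptor of the oxidation system that folds small TIM proteins, had log2 fold changes of -0.39 and -0.43. With sgMef2c the values of the same genes against the shared controls were -0.38 for Hspa9, -0.26 for Hsp90ab1, -0.25 for Hsp90aa1 and -0.29 for Chchd4, and each passed (limma adjusted p from 0.00293 to 0.00804). The adjusted p of Hsp90ab1 was 0.0686 when sgRosa26 replicate 1 was left out, and without the mean-variance trend Hspa9 alone of these 4 passed (limma). Of the motor's other parts, Grpel1, the exchange factor of Hspa9, fell with sgSik3 (log2 -0.23, limma adjusted p = 0.00307), while Dnajc19, Pam16 and Grpel2 did not pass. With YKL-05-099, 0 of 25 partners passed in RN2 and 0 of 26 in MOLM-13 by limma, where 0.317% and 0.0% of all genes did, and edgeR and DESeq2 called 0 lower. Without DMSO replicate 2, 1 partner passed as lower in RN2: Hspa8, a cytosolic chaperone of precursors. At an unadjusted p under 0.05 there was 1 partner in RN2, Chchd4, at 1257 and 1249 against 1100 and 1127, and 0 in MOLM-13.

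**Figure D4:**
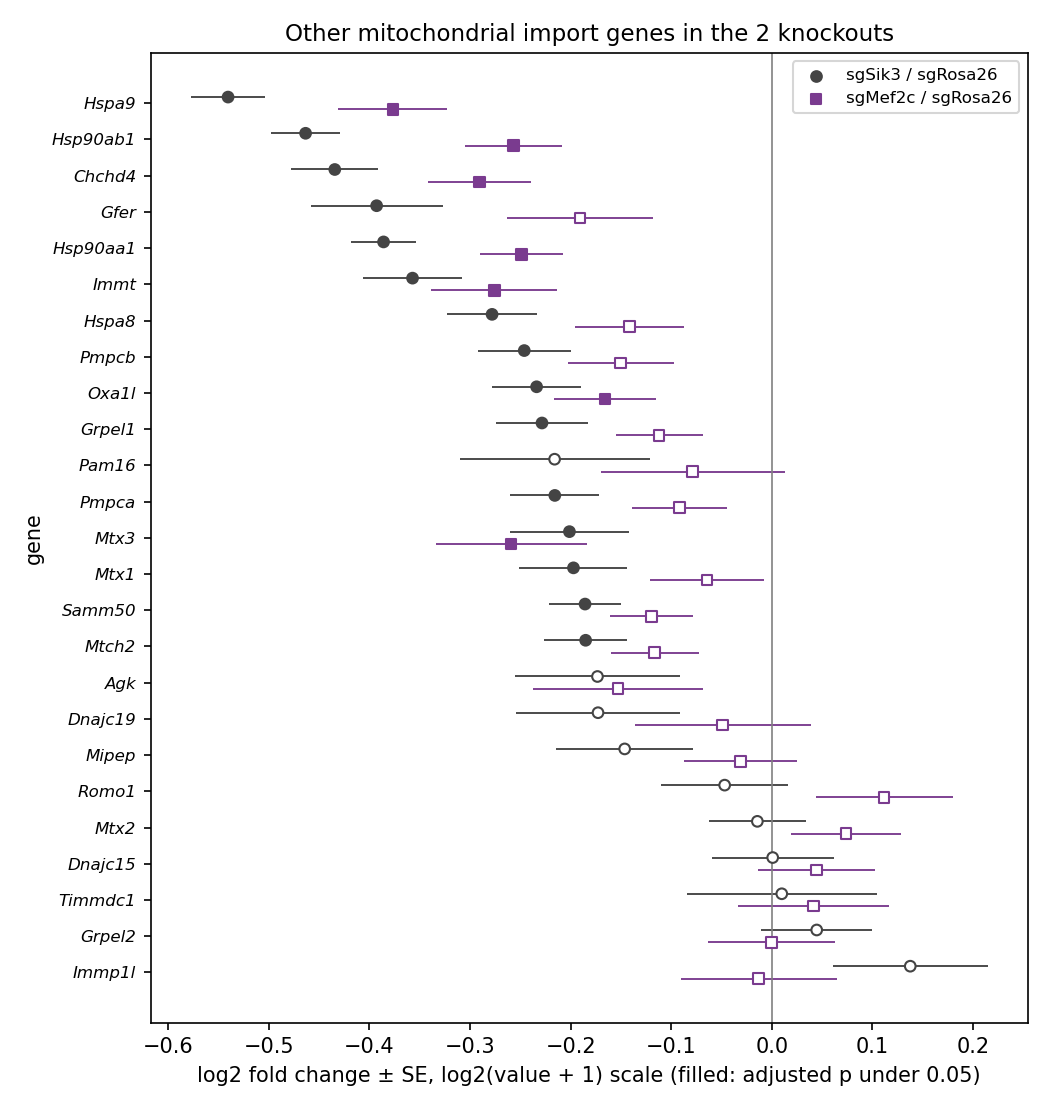
Each row is a tested partner gene and the x axis is its log2 fold change ± SE against sgRosa26, with circles for sgSik3, squares for sgMef2c and filled symbols past the limma threshold. Hspa9 is lowest with both knockouts, at -0.54 and -0.38, and both comparisons share the sgRosa26 libraries.

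Because many members fell together in the knockouts, the start regions of the mouse genes were searched for short motifs, chosen with these results known. RefSeq windows (GRCm38.p6) from 250 bases before to 50 after the start were at hand for 21 of the 24 mouse members. The E-box CACGTG, which MYC, MAX and USF proteins can bind, was found on either strand in 5 of 21 members (23.8%) and in 7.24% of 27025 mouse windows of 300 bases. It was in Tomm20, Timm9, Timm10, Timm8a1 and Tomm20l, that is, in 4 of the 12 members with a window that fell with sgSik3 and in 0 of 7 tested members that did not. The share over all genes that fell, or did not fall, with sgSik3 was not counted for any motif. A link of a motif to the fall was not tested. The ETS core CCGGAAG was in 8 of 21 members (38.1%) and in 9.12% of all windows. These were Timm10, Timm23, Tomm22 and Tomm70a, which fell with sgSik3, and Timm10b, Timm8b and Tomm34, which did not, besides the untested Timm8a2. The ETS core was thus in 4 of the 12 members that fell and in 3 of the 7 that did not. The NRF1 core GCATGCGC was in 1 member, Timm13, which fell with sgSik3, and in 2.8% of all windows. The box CCAAT was in 33.3% of members and 37.9% of all windows. It was in 3 of the 12 members that fell with sgSik3 and in 3 of the 7 that did not. A match is a string of letters and says nothing of whether a factor is bound there.

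The E-box stretches of 3 small TIM genes are shown since this group had the lowest median with sgSik3, each as 30 bases 5′ to 3′ on the gene's strand (GRCm38.p6) with the motif in capitals. Those of Timm9 are at chr12:71136716-71136745 and chr12:71136659-71136688 (minus strand), with motifs that begin 58 bases and 1 base before the RefSeq start. The second of these motifs runs across the start. Timm10 is at chr2:84827037-84827066 (plus strand), with the motif 29 bases after the start. Those of Timm8a1 are at chrX:134541889-134541918 and chrX:134541629-134541658 (minus strand), with the motif 236 bases before and 25 after it.
Timm9 upstream: cctacattttccCACGTGgtaacgaatctg
Timm9 at the start: catcactgccccCACGTGttctcagctttc
Timm10: ccggaagtgaccCACGTGcttcttatttcg
Timm8a1 upstream: ccttcagtggacCACGTGggatgaagcaac
Timm8a1 downstream: ccgtcacccagaCACGTGaaggtcggcaag

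The ETS core is shown for genes of both membranes, 3 that fell with sgSik3 and 1, Timm8b, that did not, with the core or its reverse complement in capitals. This selection does not mirror the counts of members given above. Tomm70a is at chr16:57121622-57121651 (plus strand) and Tomm22 at chr15:79670812-79670841 (plus strand). Timm23 is at chr14:32201921-32201950 (minus strand) and Timm8b at chr9:50603877-50603906 (plus strand). The motif shown begins 80, 44, 47 and 12 bases before the start in this order. The windows of Tomm70a, Tomm22 and Timm23 hold 2, 3 and 2 matches on either strand, of which 1 each is in capitals. In Tomm22, the matches that begin 47 and 44 bases before the start overlap on opposite strands, and the stretch shown holds both.
Tomm70a: ggccttctgaccCCGGAAGtggttctcccc
Tomm22: cccggctcgcttCCGGAAGacgctctgtcc
Timm23: tcgcgcttcccaCTTCCGGgccgcacacag
Timm8b: ctgaagcgtgaaCCGGAAGgcaggagacgg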

How the data were processed

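PolyA-selected RNA was sequenced in 14 libraries, 2 per group. The submitters' processing notes name HISAT2, featureCounts, DESeq2 and the builds hg19 and mm10, with tool versions not given in the sources used here. In the 4 deposited tables the values are a linear signal from DESeq2 in which each read count was divided by the authors by its library's size factor, separately for each table.

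Dividing by the worth of 1 read gave whole numbers for 100% of values and 13961461 to 24275290 reads per library. Genes with a mean of at least 10 were tested within a table with limma 3.58.1 (R 4.3.3; two-sided, with a mean-variance trend) on log2(value + 1), with Benjamini-Hochberg adjustment over all genes and a threshold of 0.05. This scale understates changes of low genes. On the recovered reads, edgeR 4.0.16 (quasi-likelihood, TMM) called 0 genes in MOLM-13, 30 in RN2, 5229 with sgSik3 and 3425 with sgMef2c, and it also compared the knockouts. DESeq2 1.42.0 was a further alternative, beside other pseudocounts, filters and scalings and leaving out each library. The main limma fit, the edgeR and DESeq2 fits within each table and the direct edgeR comparison were tested on simulated data. The other alternatives were not. The simulated spread was fixed and not fitted to these libraries.

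Members and lists were chosen with earlier results of these data known. All members are named. Values in every library are given for at least the 6 members of lowest p that passed against a control. Where fewer than 3 passed, they are given for the 3 of lowest p. In each knockout the 4 partners of lowest p that passed are named, some by log2 fold change alone. Inner membrane genes were split into TIM23 (Timm17a, Timm17b, Timm21, Timm23, Timm23b, Timm44, Timm50), TIM22 (Timm22, Timm10b) and small TIM genes. The 2 libraries of sgSik3 and of sgMef2c carried different guides, so the spread within each group also holds differences between guides. For the other groups, no source states that the 2 libraries are separate cultures. The p-values reflect the spread between libraries alone, and in those other groups that spread may be technical. No 2 libraries of a group agreed within sampling noise (chi-square over degrees of freedom 1.71 to 14.4). Lengths, as merged exons of protein-coding transcripts, are from GENCODE vM21. Human lengths and promoters were not used here.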

Additional observations from a re-analysis of the deposited data

How the results depend on the processing

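No called value changed direction under the alternatives run. Fits that leave out 1 library assume that the lone library of a group varies like the others. With sgSik3, leaving out 1 library gave 5 to 7 outer and 7 to 8 inner genes lower. Inner genes lower with sgMef2c numbered 2 with DESeq2, 2 without the mean-variance trend and 2 to 2 without any 1 library, instead of 4. Partners lower with sgMef2c numbered 1 without the trend and 4 to 7 without 1 library, instead of 7. Members higher in sgMef2c than sgSik3 numbered 1 with DESeq2 and 0 to 3 without 1 library, instead of 3. Among single genes, DESeq2 ended the sgSik3 calls of Timm8a1, Timm10 and Tomm22 and the sgMef2c calls of Timm10, Timm13 and Tomm40. Without the trend the same calls were lost except that of Timm8a1, and Timm10 also lost both calls with no filter. Tomm7 passed with sgSik3 with edgeR (adjusted p = 0.0471), with a filter of 50 and with TMM scaling. It did not pass there with DESeq2 (adjusted p = 0.235) or without the trend (limma adjusted p = 0.149). Tomm7 was also higher in sgMef2c than sgSik3 with a filter of 50. Leaving out 1 library gave a median log2 fold change of inner genes between -0.1234 and 0.0217 in MOLM-13, between -0.0252 and -0.0081 for RN2 cells and between -0.1457 and -0.1059 with sgMef2c. For outer genes it lay between -0.0305 and 0.0243 in MOLM-13, between -0.0277 and 0.0113 for RN2 cells and between -0.0412 and -0.0279 with sgMef2c. With no filter the inner median in RN2 was -0.0132. In RN2, partners lower numbered 0 to 1 without 1 library. Of all genes, calls in RN2 went from 34 to 3 with no filter, 0 without the trend and 28 to 321 without 1 library, and calls with sgMef2c from 3442 to 1628 without the trend, 2255 with DESeq2 and 1815 to 3138 without 1 library. In MOLM-13, DESeq2 called 7 genes and leaving out 1 library gave 14 to 20.

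The replicate number was also used as a block. Only 2 pairs exist per comparison and no label says what a number shares, so it is not taken as a pairing. Deviations of equal numbers correlated at 0.72 in MOLM-13, 0.36 in RN2 and 0.09 with sgMef2c. With the replicate block, all-gene calls were 290 in MOLM-13, 499 in RN2 and 3905 with sgMef2c. In RN2, 1 inner gene (Timm10, limma adjusted p = 0.0247) and 2 partners were then lower. Members lower remained 4 outer and 4 inner with sgMef2c under the block, and 0 in MOLM-13. No paired analysis was possible for sgSik3 because its labels name the guides e1 and e3, which share fewer than 2 numbers with the sgRosa26 replicates 1 and 2. The sgMef2c numbers 1 and 2 were read as guides, and no label says that they share anything with sgRosa26 replicates of equal number.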
